A study of Mus musculus with 6 samples.

Results

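Serpins are protease inhibitors and the Prss genes encode serine proteases of the trypsin family, and both were followed in the testis of male mice on a standard or a Western-like diet. The members were all array probes whose platform gene symbol begins with Serpin and a clade letter from a to i, or with Prss, followed by a number, except Serpina3n. Any probe annotated to several genes was left out. This gave 124 of 45281 probes, of which 80 measured 55 serpin genes and 44 measured 33 Prss genes. The serpin genes include Serpina4-ps1, a pseudogene by its symbol. Each array (an Illumina MouseWG-6 BeadChip) carried total testis RNA from a single C57Bl/6 male, 4 months of age. The standard diet (SD) group was mice 1, 2 and 5 and the high-fat group, called here the Western-like diet (WD) group, was mice 3, 4 and 6. According to the study's text, the WD males received a diet rich in butter and sucrose from weaning, no other treatment of them is named, and the arrayed animals were chosen at random after those with the strongest response to diet had been set aside. The mice are separate animals, so the spread between arrays holds both animal and array differences.

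A serpin acts as bait: a protease cuts its exposed reactive loop, the serpin changes shape, and the protease is trapped in an inactive complex. Members of clades A, C, D, F and G are mostly secreted, those of clade B mostly stay in the cell, and some serpins inhibit nothing and instead carry hormones or help proteins to fold. Trypsin-like Prss enzymes are made as inactive precursors, and many of them are known from the testis, where they are placed in the acrosome or on the sperm surface and act in spermatogenesis and fertilization.

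Levels are log2 intensities after background correction and quantile normalization. A probe was called detected on an array when its detection p, the share of blank control beads at least as bright, was under 0.05, and it was tested when detected on at least 3 of the 6 arrays. A gene with several probes is described at its brightest probe, by mean level across mice. Probes differ in how brightly they report the same amount of RNA, so levels are compared between mice and not between genes. Across all 45281 probes, between 42% and 47.1% were detected per array, and raw median intensities lay between 120.1 and 172.5. Raw intensity was lowest for mice 5 (SD) and 6 (WD). The tissue label fitted most of its markers. All 6 round spermatid and all 6 elongating spermatid markers on the array were detected, as were all 6 Leydig markers. Of 7 spermatocyte markers 6 were detected on at least 3 arrays, and Sycp3 was detected on none. Of 9 markers of epididymis and seminal vesicle 2 were detected on at least 3 arrays. Of 10 Sertoli markers on the array 8 were detected on at least 3 arrays, and Amh, which adult Sertoli cells silence, was detected on none.

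Most Prss genes were detected in testis and most serpin genes were not. Of the 33 Prss genes 20 (60.6%) were detected on all 6 arrays, 5 on 1 or 2 and 8 on none. Of the 55 serpin genes 7 (12.7%) were detected on all 6, 9 on 3 to 5, 10 on 1 or 2 and 29 on none. Of all 19057 named genes on the array, each at its brightest probe, 50.9% were detected on all 6 arrays and 29% on none. Between 19 and 26 of the 80 serpin probes and between 22 and 26 of the 44 Prss probes were detected on any 1 array. The ranges of the diets overlapped in both families.

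**Figure D1:**
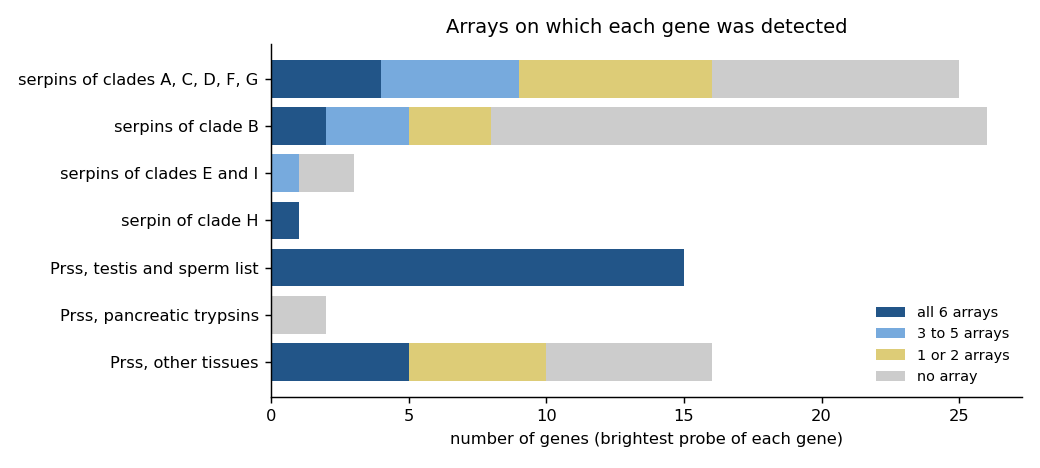
Number of genes (horizontal axis) in each group of serpins and Prss genes, coloured by the number of arrays on which the brightest probe of the gene was detected. All 15 genes of the testis and sperm list lie in the all-arrays class, whereas 18 of the 26 clade B serpins were detected on no array.

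The Prss genes listed as testis and sperm proteases were all detected, 15 of 15 on all 6 arrays. That list was drawn from genes already known from the testis, so its detection is a description of these arrays and no separate evidence. It holds Prss21, or testisin, a membrane-anchored protease of sperm, Prss39 and Prss40, proteases of the acrosome, Prss37 and Prss55, which male mice need for fertility, Prss50, a protease of germ cells, and Prss41, Prss42, Prss43, Prss44, Prss45, Prss46, Prss52, Prss54 and Prss58. Of the 16 Prss genes grouped under other tissues, 5 were detected on all 6 arrays, which were Prss23, Prss35, Prss38, Prss48 and Prss56. Prss12, Prss27, Prss29, Prss53 and Prss8, the last of which is the epithelial protease prostasin, were detected on 1 or 2 arrays. Prss16, a protease of the thymus, Prss22, Prss28, Prss30, Prss32, Prss34 and the pancreatic trypsin genes Prss2 and Prss3 were detected on none.

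Among the serpins, the genes detected on all 6 arrays were Serpina3a, Serpina5, Serpinf1, Serping1, Serpinb6a, Serpinb6c and Serpinh1. Of the 26 clade B genes 18 were on no array, among them Serpinb2, an inhibitor of plasminogen activators, Serpinb5, known as maspin, and Serpinb9, which blocks granzyme B. Of the 25 genes of clades A, C, D, F and G 9 were on no array, among them Serpina6, the corticosteroid carrier of blood, Serpind1, a thrombin inhibitor, and Serpinf2, the plasmin inhibitor. Serpinc1, which encodes antithrombin, was detected on 1 array. The copies of alpha-antitrypsin, Serpina1a to Serpina1e, are nearly identical in sequence, so their probes could share signal, and of these 5 genes Serpina1b alone was detected on at least 3 arrays. Of 8 marker genes of liver and plasma, 1 was detected on at least 3 arrays, and Alb, Apoa1, Fga, Fgb and Ttr were detected on none. A probe that was not detected gives no more than an upper limit set by the background, and absence of the RNA was not shown.

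Many members lie in runs of neighbouring genes. By the gene order of assembly GRCm38.p6, Prss42, Prss44, Prss43, Prss45, Prss46 and Prss50 form a run on chromosome 9, and 6 of 6 were detected on all arrays. In a run on chromosome 17, Prss41 and Prss21 were detected on all arrays, while Prss32, which lies between them, was detected on none. In the other runs on chromosome 17, of Prss30, Prss22 and Prss27 and of Prss34, Prss28 and Prss29, 0 were detected on all arrays. In the clade A run on chromosome 12, 2 of 18 genes were detected on all arrays and 7 on none, and the 2 were the neighbours Serpina5 and Serpina3a. In the clade B run on chromosome 13, 2 of 15 were, the neighbours Serpinb6c and Serpinb6a, and in the run on chromosome 1 0 of 11 were detected on all arrays. Neighbours in these runs are related copies, so their probes may share signal.

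The 250 bases before the start of the gene are printed for a detected and an undetected neighbour, Prss21 and Prss32, for a gene of the run on chromosome 9, for Serpina5 and Serpina3a, and for Serpinb8, the serpin with the smallest p between diets. They are RefSeq sequences of build GRCm38.p6 and were chosen after detection was known. Capitals mark each CG dinucleotide, the site of DNA methylation in mammals, which reads the same on both strands.
Prss21 (GRCm38.p6, chr17:23867822-23868071, + strand): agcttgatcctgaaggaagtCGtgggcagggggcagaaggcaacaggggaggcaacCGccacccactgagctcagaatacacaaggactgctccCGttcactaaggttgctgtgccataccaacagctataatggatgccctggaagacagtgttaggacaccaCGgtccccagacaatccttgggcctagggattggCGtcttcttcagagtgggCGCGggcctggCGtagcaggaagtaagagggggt
Prss32 (GRCm38.p6, chr17:23853522-23853771, + strand): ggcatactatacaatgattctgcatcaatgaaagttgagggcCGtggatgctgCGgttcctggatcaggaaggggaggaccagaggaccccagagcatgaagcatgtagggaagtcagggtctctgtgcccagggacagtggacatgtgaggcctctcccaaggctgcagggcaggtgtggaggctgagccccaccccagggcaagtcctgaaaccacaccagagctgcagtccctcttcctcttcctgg
Prss46 (GRCm38.p6, chr9:110844256-110844505, + strand): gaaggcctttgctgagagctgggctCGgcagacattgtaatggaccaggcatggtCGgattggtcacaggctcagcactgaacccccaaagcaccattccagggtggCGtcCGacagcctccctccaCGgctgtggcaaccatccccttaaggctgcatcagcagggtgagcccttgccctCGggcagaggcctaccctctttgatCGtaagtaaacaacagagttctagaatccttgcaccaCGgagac
Serpina5 (GRCm38.p6, chr12:104100863-104101112, + strand): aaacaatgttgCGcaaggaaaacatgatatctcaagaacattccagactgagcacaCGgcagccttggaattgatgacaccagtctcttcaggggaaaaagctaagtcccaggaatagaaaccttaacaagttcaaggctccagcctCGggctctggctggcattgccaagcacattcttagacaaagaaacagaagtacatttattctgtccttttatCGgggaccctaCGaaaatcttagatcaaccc
Serpina3a (GRCm38.p6, chr12:104112474-104112723, + strand): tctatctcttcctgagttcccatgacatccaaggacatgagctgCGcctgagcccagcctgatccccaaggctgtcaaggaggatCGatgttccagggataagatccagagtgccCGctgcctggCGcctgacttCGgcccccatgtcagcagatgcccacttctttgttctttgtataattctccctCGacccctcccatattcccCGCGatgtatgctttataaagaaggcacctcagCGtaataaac
Serpinb8 (GRCm38.p6, chr1:107589756-107590005, + strand): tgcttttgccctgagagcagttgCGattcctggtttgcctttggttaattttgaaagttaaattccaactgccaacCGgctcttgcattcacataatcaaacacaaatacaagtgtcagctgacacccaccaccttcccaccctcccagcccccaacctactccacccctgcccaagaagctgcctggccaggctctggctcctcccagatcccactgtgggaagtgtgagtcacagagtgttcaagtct

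The median number of CG dinucleotides in these windows was higher among detected than among undetected members with 1 listed promoter, with overlapping ranges. The count was 8 in Prss21 and 2 in Prss32, 8 in Prss46, 5 in Serpina5, 9 in Serpina3a and 2 in Serpinb8. Over members with 1 listed promoter, the median was 8 (range 0 to 10) in 13 Prss genes detected on all arrays and 2.5 (range 0 to 3) in 6 Prss genes detected on none. For serpins it was 8 (range 2 to 11) in 5 detected genes and 1 (range 0 to 7) in 18 undetected genes. Across all 32851 promoters in the table the median was 6, and 92.1% held at least 1. Neighbouring copies share sequence, so these counts are not independent and were not tested.

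No serpin or Prss probe passed the threshold between the diets. Of the 45 member probes tested (23 serpin, 22 Prss), 0 had an adjusted p under 0.05 in limma with Benjamini-Hochberg adjustment, as had 0% of the 19763 probes tested. At an unadjusted p under 0.05 there were 4 member probes (8.89%), against 5.13% of all tested probes. Of these 1 was higher and 3 were lower in WD, against 2.56% and 2.57% of all tested probes. At 7 member probes (15.6%) the WD and SD values were fully separate, against 10.2% of all tested probes. Of these 3 were higher and 4 lower in WD, against 5.17% and 4.98% of all tested probes. Both Serpina5 probes were among the 7, as was Serpinb8, which passed the filter only through its detection in SD. With each gene at its brightest probe, 2 of 16 serpin genes (12.5%) and 3 of 20 Prss genes (15%) were fully separate. The median log2 fold change, WD minus SD, was -0.03 in the 23 serpin probes and -0.04 in the 22 Prss probes, and -0.00082 in all tested probes. Of the 22 Prss probes 14 had a lower mean in WD and 8 a higher one, and of the 23 serpin probes 12 were lower and 11 higher, against 50.2% lower and 49.8% higher among all tested probes.

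**Figure D2:**
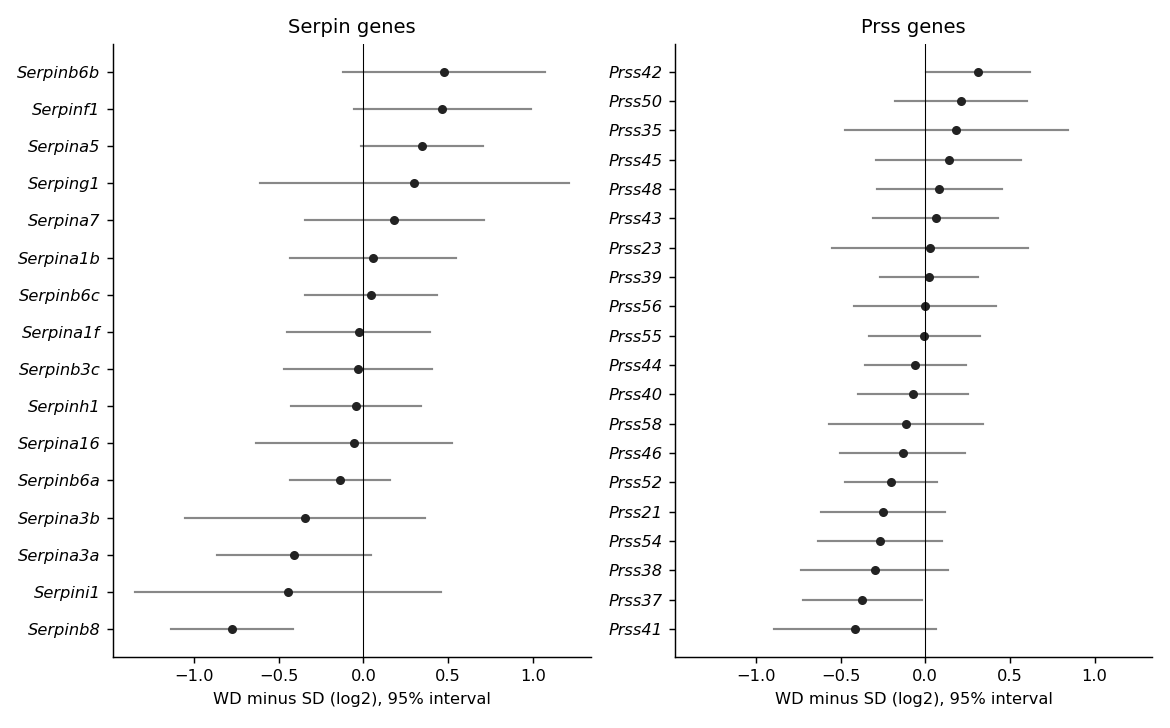
Difference between the diet means, WD minus SD on the log2 scale (horizontal axis), for each tested serpin gene (left) and Prss gene (right) at its brightest probe. Points are limma estimates and lines their 95% intervals, without adjustment for the number of genes. All intervals but those of Serpinb8, Prss37 and Prss42 hold 0.

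The precision differed between the families. The 95% interval of the diet difference lay within a 1.5-fold change in either direction for 11 of 20 Prss genes and 6 of 16 serpin genes, and for 59.4% of all tested probes. The half-width of the interval had a median of 0.37 in Prss genes and 0.47 in serpin genes, on the log2 scale. For Prss39 the interval ran from -0.27 to 0.31 and for Prss55 from -0.33 to 0.32. For Serping1 it ran from -0.61 to 1.21, so that a difference of more than 2-fold could not be told from none.

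The acrosomal and sperm surface proteases lay in overlapping ranges in both diets. Prss39 had levels of 12.81, 12.65 and 12.79 in SD mice 1, 2 and 5 and of 12.80, 12.69 and 12.83 in WD mice 3, 4 and 6. The ranges of the diets overlapped, and the log2 fold change was 0.02 ± 0.13 (SE, adjusted p = 0.991 in limma). Prss40 lay between 10.84 and 11.16 in SD and between 10.83 and 11.06 in WD. Prss21 had 12.37, 12.03 and 11.89 in SD and 11.74, 11.89 and 11.91 in WD. SD mouse 1 was the highest and the diets overlapped, with a log2 fold change of -0.25 ± 0.16 (adjusted p = 0.935 in limma). Prss55 lay between 11.51 and 11.81 in SD and between 11.51 and 11.78 in WD.

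Prss37 and Prss52 had lower values in all 3 WD mice than in any SD mouse. Prss37, which encodes a sperm protein that lacks protease activity and is needed by male mice for fertility, had levels of 11.46, 11.31 and 11.28 in SD and 10.80, 10.91 and 11.23 in WD. WD mouse 6 lay 0.12 below the SD mean, while WD mice 3 and 4 lay 0.55 and 0.44 below it. The SD mean was 1.29-fold the WD mean, with a log2 fold change of -0.37 ± 0.15 and an adjusted p of 0.935 in limma. Prss52 had 11.95, 11.90 and 11.99 in SD and 11.73, 11.72 and 11.77 in WD. These were narrow groups, with an SD between mice of 0.0441 in SD and 0.0269 in WD, and the log2 fold change was -0.20 ± 0.12 (adjusted p = 0.935 in limma). The moderated error of limma, which borrows from all probes, was wider than these SDs imply. Prss41, a further membrane-anchored protease of the testis, had 7.10, 6.97 and 6.76 in SD and 6.15, 6.92 and 6.53 in WD, which overlapped, with a log2 fold change of -0.41 ± 0.21 (adjusted p = 0.935 in limma). It was -0.22 without WD mouse 3, -0.61 without WD mouse 4 and -0.18 with the authors' log2 values.

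**Figure D3:**
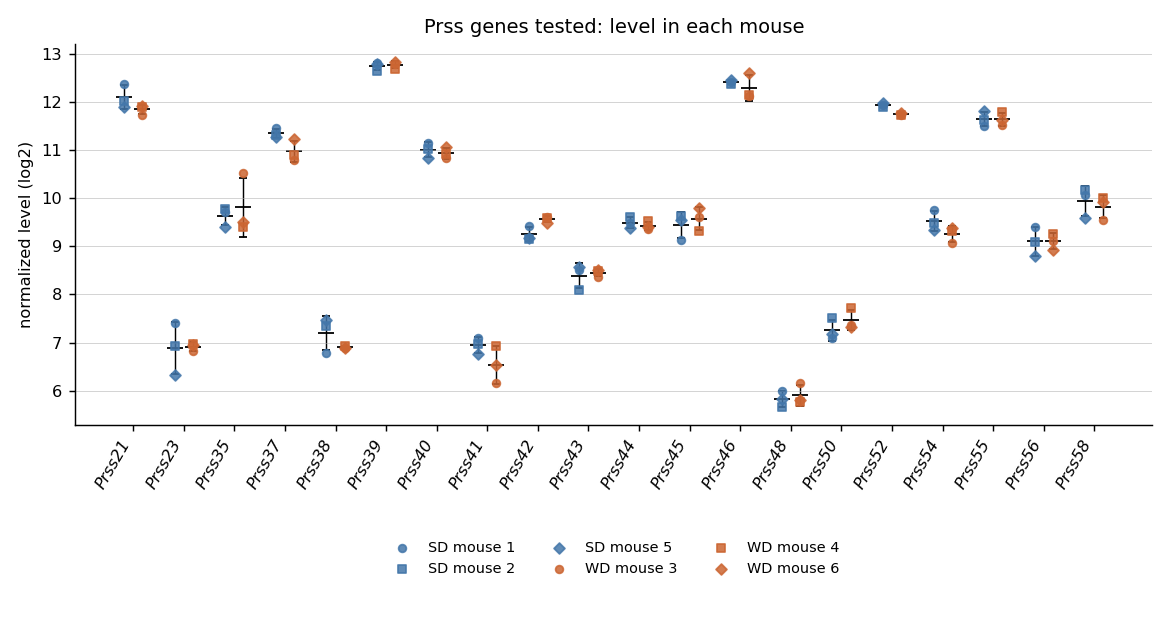
Normalized log2 level (vertical axis) of the 20 tested Prss genes in each mouse, SD in blue and WD in orange, with the mean (horizontal tick) and SD of 3 mice per diet. In Prss42 all WD mice lie above the SD mice, in Prss37 and Prss52 all lie below them, and Prss35 in WD mouse 3 stands at 10.52.

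The run of testis proteases on chromosome 9 did not move as a block. Prss42, a germ cell protease, had levels of 9.43, 9.16 and 9.18 in SD and 9.62, 9.60 and 9.49 in WD. All 3 WD mice were above the SD mice, by 1.24-fold on average, with a log2 fold change of 0.31 ± 0.13 and an adjusted p of 0.935 in limma. The other genes of the run overlapped between diets. Their log2 fold changes were -0.06 for Prss44, 0.06 for Prss43, 0.14 for Prss45, -0.13 for Prss46 and 0.21 for Prss50. Prss46 held 12.42, 12.38 and 12.46 in SD and 12.12, 12.14 and 12.60 in WD, so that WD mouse 6 was the highest of all mice and WD mice 3 and 4 were the lowest. Prss50 held 7.09, 7.50 and 7.17 in SD and 7.36, 7.71 and 7.33 in WD.

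Other detected Prss genes had values that overlapped between diets at their described probes. Prss54, a sperm protease homolog, had log2 fold changes of -0.27 and -0.01 at its 2 probes, and Prss58 had -0.12. Prss38 had 6.78, 7.34 and 7.47 in SD and 6.88, 6.93 and 6.88 in WD, and Prss48, a dim probe, lay between 5.65 and 6.15 in the 6 mice. Prss56, known from eye development, had a log2 fold change of -0.0033 (95% interval -0.42 to 0.42). Prss23, a secreted protease, gave different answers at its 2 tested probes. At the brighter, the levels were 7.42, 6.92 and 6.33 in SD and 6.82, 6.98 and 6.95 in WD, with a log2 fold change of 0.03. At the dimmer they were 6.49, 6.64 and 6.53 in SD and 5.79, 5.98 and 6.04 in WD, with no overlap and a log2 fold change of -0.62 ± 0.13 (adjusted p = 0.801 in limma). Prss23 had 1 more probe, which was detected on no array.

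Serpina5 had the same direction at both of its probes. It encodes the protein C inhibitor, a secreted serpin of the male reproductive tract that male mice need for fertility. At the brighter probe the levels were 12.07, 12.14 and 12.07 in SD and 12.72, 12.37 and 12.23 in WD, and at the other they were 8.93, 8.97 and 9.11 in SD and 10.03, 9.21 and 9.26 in WD. All WD mice were above all SD mice at both, and WD mouse 3 was the highest. The difference was 1.27-fold at the brighter probe and 1.41-fold at the other, with log2 fold changes of 0.35 ± 0.16 and 0.50 ± 0.22 and an adjusted p of 0.935 for each in limma. Without WD mouse 3 the log2 fold change at the brighter probe was 0.21. The 2 probes report the same RNA of the same mice and are not separate support.

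**Figure D4:**
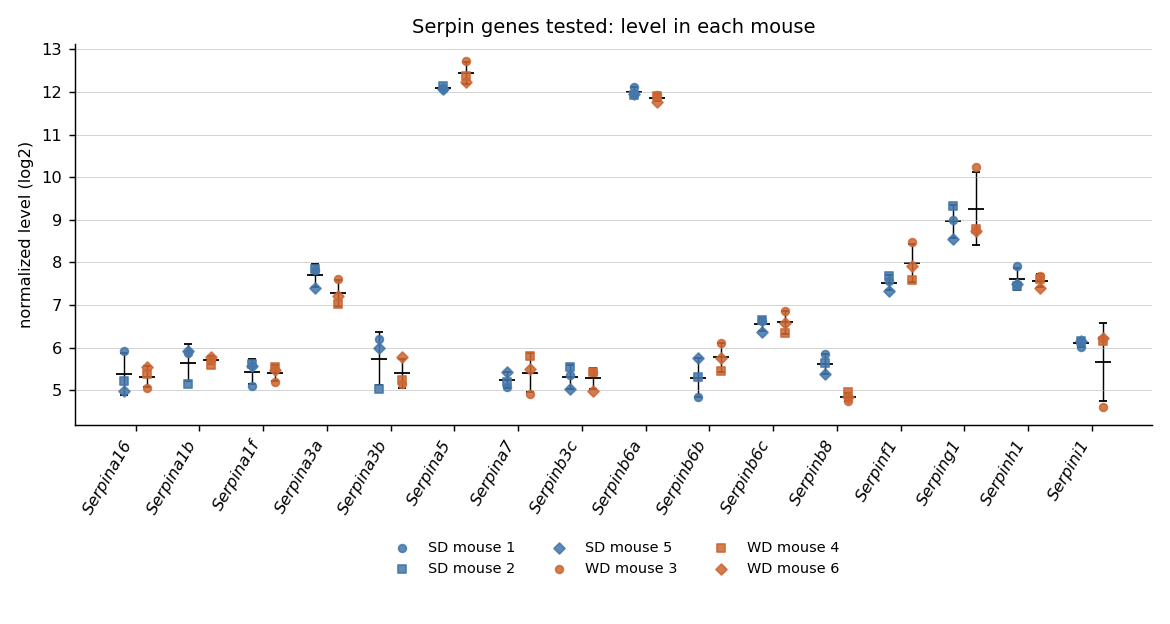
Normalized log2 level (vertical axis) of the 16 tested serpin genes in each mouse, SD in blue and WD in orange, with the mean (horizontal tick) and SD of 3 mice per diet. Serpina5 is higher and Serpinb8 lower in all WD mice, while WD mouse 3 alone is high in Serping1 (10.24) and low in Serpini1 (4.60).

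Serpinb8, an intracellular inhibitor known in humans to block furin, was detected in all 3 SD mice and in no WD mouse. Its levels were 5.85, 5.65 and 5.38 in SD and 4.76, 4.96 and 4.84 in WD. The groups did not overlap, but all values lay near the background. Set against the lowest detected signal of the WD arrays, the SD mean was at least 1.22-fold the WD mean. This bound covers the means of these mice and holds no sampling error. The measured log2 fold change was -0.78 ± 0.16, with an adjusted p of 0.801 in limma. Serpinb8 passed the filter only through its detection in SD, so that pattern is no separate evidence. Over the alternatives in processing that tested it, the log2 fold change lay between -0.90 and -0.24.

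Serpinb6a, an intracellular inhibitor of trypsin-like proteases, had levels between 11.93 and 12.13 in SD and between 11.77 and 11.93 in WD at its brightest probe, with a log2 fold change of -0.14 ± 0.13 (adjusted p = 0.958 in limma). Its dimmer tested probe had 0.09. Serpinb6c had 0.05. Serpinb6b was detected in 1 SD mouse and all 3 WD mice, with 4.84, 5.31 and 5.75 in SD and 6.12, 5.45 and 5.76 in WD, which overlapped, and a log2 fold change of 0.48 ± 0.26 (adjusted p = 0.935 in limma). With 1 mouse left out it lay between 0.24 (without SD mouse 1) and 0.70 (without SD mouse 5), and it was 0.16 with no background correction. Serpinb6b passed the filter only through its detection in WD, so that pattern is no separate evidence. Serpinb3c, also near the background, had a log2 fold change of -0.03.

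Serping1 and Serpinf1 had their highest values in WD mouse 3 at their brightest probes, and both diets overlapped. Serping1, the complement inhibitor of the classical pathway, had 8.99, 9.33 and 8.56 in SD and 10.24, 8.80 and 8.75 in WD at its brighter probe, and 8.78, 8.81 and 8.23 in SD and 10.10, 8.46 and 8.33 in WD at the other. WD mouse 3 stood above all other mice at both, and the other WD mice lay within the SD range. The log2 fold change at the brighter probe was 0.30 ± 0.40 (adjusted p = 0.965 in limma), and -0.19 without WD mouse 3. Serpinf1, a secreted factor that restrains blood vessel growth, had 7.56, 7.68 and 7.33 in SD and 8.47, 7.58 and 7.92 in WD at its brighter probe, a log2 fold change of 0.47 ± 0.23 (adjusted p = 0.935 in limma), and 0.23 without WD mouse 3. Its dimmer probe went the other way, with 6.88, 6.92 and 6.77 in SD and 6.46, 6.81 and 6.33 in WD and a log2 fold change of -0.32. The direction of the Serpinf1 difference thus depended on the probe.

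Of the remaining extracellular serpins, Serpina3a, a relative of antichymotrypsin, had 7.83, 7.86 and 7.39 in SD and 7.61, 7.03 and 7.21 in WD, a log2 fold change of -0.41 ± 0.20 (adjusted p = 0.935 in limma) with overlapping groups. With 1 mouse left out it lay between -0.57 (without WD mouse 3) and -0.29 (without WD mouse 4). Serpina3b, detected in 2 SD mice and 1 WD mouse, ranged from 5.04 to 6.20 in SD and from 5.16 to 5.78 in WD. Serpina7, the thyroid hormone carrier, was detected in 1 SD and 2 WD mice and had a log2 fold change of 0.18. Log2 fold changes were 0.06 for Serpina1b, whose other tested probes had 0.03 and -0.21, -0.03 for Serpina1f and -0.06 for Serpina16. Serpinh1, the collagen chaperone of the endoplasmic reticulum, had 7.91, 7.45 and 7.48 in SD and 7.69, 7.62 and 7.41 in WD, with a log2 fold change of -0.04 and a 95% interval from -0.43 to 0.34, and -0.28 at its dimmer probe.

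Serpini1, or neuroserpin, an inhibitor of tissue plasminogen activator, was near 6 in all mice but 1. The levels were 6.01, 6.16 and 6.15 in SD and 4.60, 6.15 and 6.23 in WD, and it was not detected in WD mouse 3. The log2 fold change of -0.45 ± 0.39 (adjusted p = 0.949 in limma) was 0.08 without that mouse. The gene had 1 probe, so no second probe could be set beside it.

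WD mouse 3 was far above or below the other mice at several tested members. In this mouse 4 of 23 serpin probes lay at least 0.5 above every other mouse, as did 1 of 22 Prss probes, that of Prss35. The 4 were the dimmer probe of Serpina5, the brighter probe of Serpinf1 and both probes of Serping1. Serpini1 lay at least 0.5 below every other mouse. In the other 5 mice no tested member probe did so in either direction. Among all tested probes, 1.56% were that far above in WD mouse 3 and between 0.228% and 0.562% in the other mice. The share that far below was 0.956% in WD mouse 3 and 0.936% in SD mouse 1, so on the low side WD mouse 3 did not stand apart from SD mouse 1. The limit of 0.5 was chosen after the values were seen. Prss35, a protease homolog known from the ovary, had 9.71, 9.77 and 9.41 in SD and 10.52, 9.41 and 9.51 in WD, and its log2 fold change of 0.18 ± 0.29 was -0.17 without WD mouse 3.

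**Figure D5:**
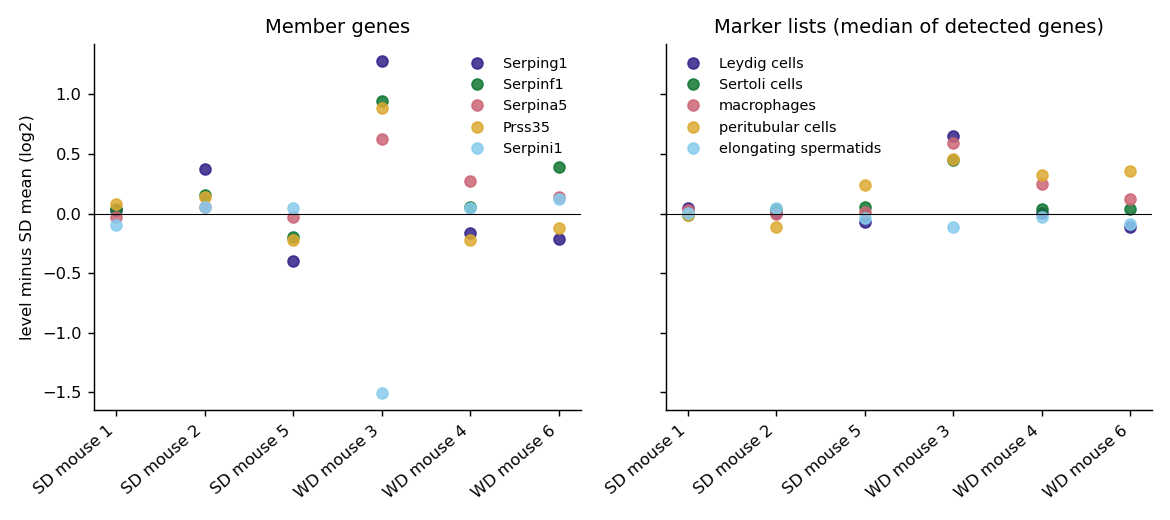
Level minus the SD mean (vertical axis, log2) in each mouse for 5 member genes at their brightest probes (left) and, as the median of the detected genes, for 5 lists of cell type markers (right). Serping1, Serpinf1, Prss35 and Serpina5 are high in WD mouse 3, where the Leydig list stands at 0.65 and the macrophage list at 0.59.

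Marker signals were summed over all markers of a list on the array, detected or not. The sums of Leydig cells, Sertoli cells, macrophages, peritubular cells, endothelial cells, red blood cells and spermatogonia were also highest in WD mouse 3. Those of mast cells and of epididymis and seminal vesicle were too, but by a small margin. For mast cells, 1 of 7 markers was detected, and the sum was 980 in WD mouse 3 and 975 in WD mouse 6. For epididymis and seminal vesicle, 2 of 9 were detected, and the sum was 545 in WD mouse 3 and 539 in SD mouse 2. The sums of spermatocytes, round and elongating spermatids, and liver and plasma were not highest in WD mouse 3. For the 6 Leydig markers, the median difference from the SD average was 0.65 in WD mouse 3, 0.0060 in mouse 4 and -0.11 in mouse 6. The summed Leydig signal on the linear scale ranged from 41252 to 47671 in SD and from 44135 to 59364 in WD. For 8 of 10 Sertoli markers the median was 0.45 in WD mouse 3 and 0.04 in each of the other WD mice. The summed signal of all 10 ranged from 12029 to 13345 in SD and from 12295 to 16800 in WD. For 7 of 7 macrophage markers the medians were 0.59, 0.25 and 0.13 in WD mice 3, 4 and 6, and the summed signal ranged from 1836 to 1968 in SD and from 2176 to 3534 in WD. For peritubular cells, 3 of 5 markers were detected, with Cnn1 and Tagln on no array, and the summed signal ranged from 2445 to 2837 in SD and from 3086 to 3618 in WD. For endothelial cells 3 of 6 markers were detected, with Kdr on no array, and the summed signal ranged from 248 to 315 in SD and from 355 to 399 in WD. The medians of the 3 were 0.62, 0.58 and 0.38 in WD mice 3, 4 and 6. They were -0.35, -0.043 and 0.22 in SD mice 1, 2 and 5. For 3 of 3 red blood cell markers it ranged from 765 to 855 in SD and from 885 to 989 in WD. For red blood cells, peritubular cells, endothelial cells and macrophages the summed signals did not overlap between diets and were higher in WD. Among single tested probes, 10.2% did not overlap between diets, and no such share was computed for summed lists. For spermatogonia 5 of 7 markers were detected, with Zbtb16 on no array. The summed signal of all 7 ranged from 1280 to 1487 in SD and from 1362 to 1603 in WD. For 6 of 6 elongating spermatid markers the medians were -0.12, -0.029 and -0.090 in WD mice 3, 4 and 6. They were 0.0059, 0.043 and -0.035 in SD mice 1, 2 and 5, so the medians overlapped between diets. The summed signal, in which bright markers weigh most, ranged from 172801 to 179712 in SD and from 165789 to 170940 in WD. By that measure the list was lower in WD without overlap. The part of these cell types in the values of Serping1, Serpinf1, Serpina5, Serpini1 and Prss35 was not tested, and in whole testis more cells of a type and more RNA per cell cannot be told apart.

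The other genes of protease control were likewise not called between diets. Of 44 other serine protease genes on the array 18 were tested, 10 higher and 8 lower in WD, with 0 past the adjusted threshold in limma, 2 higher and 0 lower at an unadjusted p under 0.05, and a median log2 fold change of 0.02. Over all tested probes 49.8% were higher, 2.56% were higher and 2.57% lower at that p, and the median was -0.00082. Those with the smallest p were Mbtps1, which activates regulators of lipid synthesis (0.46), and the mitochondrial protease Lonp1 (0.40) on the higher side, and the mitochondrial protease subunit Clpp (-0.19) and the membrane protease Tmprss12 (-0.16) on the lower. Of 35 other inhibitor genes 24 were tested, 18 higher and 6 lower, with 0 past the adjusted threshold, 2 higher and 0 lower at an unadjusted p under 0.05, and a median of 0.19, to be read against the same shares. Timp3, an inhibitor of metalloproteases in the matrix, had 8.32, 8.23 and 8.36 in SD and 8.98, 8.62 and 8.71 in WD, with no overlap and an adjusted p of 0.874 in limma. Timp2 had a log2 fold change of 0.34, and Spint2 and Reck had -0.40 and -0.10. Of 18 receptors, cofactors and targets of serpins 6 were tested, 3 higher and 3 lower, with 0 past the adjusted threshold, 1 higher and 1 lower at an unadjusted p under 0.05, and a median of -0.0023. Thbd, the thrombin receptor that starts protein C activation, had 6.66, 7.09 and 6.95 in SD and 7.39, 7.40 and 7.58 in WD (log2 fold change 0.56, adjusted p = 0.845 in limma), and Plat had 0.12. Proc, which encodes the protein C precursor, had 8.63, 8.34 and 8.41 in SD and 7.99, 8.19 and 8.21 in WD (log2 fold change -0.33, adjusted p = 0.935 in limma), and Lrp8 had -0.18.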

How the data were processed

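The deposited intensity values are linear bead intensities of 45281 probes, exported by the authors from GenomeStudio (version not given in the sources used here), not corrected for background or scaled. The deposited detection column, headed as a p-value, rises with intensity and was taken as a score, namely 1 minus that p. The second table holds log2 values deposited by the authors, which equal the log2 of the intensity less an upper quartile per array and less a value per probe common to all arrays, to within an SD over arrays of 4.48e-06, so their scale and direction are settled, while where the value per probe came from is unknown. The array medians of that table were -0.01725 (mouse 1), -0.05636 (mouse 2) and 0.001854 (mouse 5) in SD, then -0.01196 (mouse 3), 0 (mouse 4) and 0.007596 (mouse 6) in WD. Intensities were background corrected and then quantile normalized by the neqc function (R 4.3.3, limma 3.58.1), with an offset of 16 before log2, which pulls the folds of dim probes towards 1. Probes detected (p under 0.05) on at least 3 of 6 arrays were tested for WD minus SD, two-sided, by lmFit and eBayes, with Benjamini-Hochberg adjustment over all 19763 tested probes and a threshold of 0.05, after testing on simulated data. The number of arrays limits the precision. Where a probe was detected on no array of a diet, a fold is given as a bound, set per array at the lowest detected signal or at the probe's own value if that was higher. Gene names came from the platform annotation, and all 88 member genes matched a RefSeq gene of assembly GRCm38.p6 by Entrez number. Probe positions and sequences were not used here.

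Members, lists and alternatives were chosen with earlier results of these data known. Named genes were, per family, the 5 higher and the 5 lower in WD with the smallest p, genes detected in all mice of one diet and none of the other, and a list of testis proteases and common serpins where detected on all 6 arrays (4 genes of it had no probe in the annotation used and were not analysed here). Of the other lists, 2 genes per direction with the smallest p were named. Further genes and probes were named after their values were seen. The alternatives covered scaling, background, the authors' log2 values, offset, filter, variance trend, a block for mice 5 and 6 and each mouse left out.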

Additional observations from a re-analysis of the deposited data

How the results depend on the processing

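In limma 0 probes passed the adjusted threshold in any of the 16 alternatives (smallest adjusted p 0.542), and 16 of the 31 named genes kept their direction in the 11 that could move a fold change. The other 5 change only which probes are tested or the error. No paired analysis was possible because no number in the titles recurs across the diets, and only 1 in the descriptions does. The 1013 probes at an unadjusted p under 0.05 (5.13%) became 2213 of 45281 (4.89%) with no filter, 1567 (7.93%) without mice 5 and 6, and between 766 and 1572 with 1 mouse left out. Serpin probes at that p, 1 in the report, were 5 with no background correction, with the authors' log2 values and with an offset of 50, 7 with no filter, 2 with detection on all 6 arrays, on at least 1 array or without mice 5 and 6, 4 with the variance trend, and between 1 and 4 with 1 mouse left out. Among all tested probes the share at that p was 4.96%, 5.72% and 5.00% in the settings with 5, 5.03% with the trend, 4.96% with detection on all 6 arrays and 5.09% on at least 1. The 5 were those of Serpina3a, Serpina5 (both probes), Serpinb8 and Serpinf1. Prss probes at that p, 3 in the report, were 6 with the authors' log2 values, 1 with detection on at least 1 array, and between 1 and 3 with 1 mouse left out. The serpin probes tested were 80, 11 and 36 with no filter, with detection on all 6 and on at least 1 array, and the Prss probes were 44 with no filter. The median log2 fold change of serpin probes was 0.094 with detection on all 6 arrays and between -0.092 and 0.066 with 1 mouse left out. That of Prss probes was -0.10 with median scaling, -0.13 without mice 5 and 6, and between -0.13 and -0.021 with 1 mouse left out. Log2 fold changes that turned sign were those of Prss23 (-0.012 with median scaling, -0.0032 with no background correction, -0.0034 with the authors' log2 values, -0.27 without mice 5 and 6), Prss39 (-0.068 with median scaling, -0.069 with the authors' log2 values), Prss55 (0.080 without mice 5 and 6) and Serpinb6c (-0.031 without mice 5 and 6). With 1 mouse left out the values lay between -0.25 and 0.29 for Prss23, -0.17 and 0.39 for Prss35, -0.027 and 0.064 for Prss39, -0.15 and 0.0042 for Prss40, -0.087 and 0.15 for Prss43, -0.11 and 0.00026 for Prss44, -0.018 and 0.26 for Prss45, -0.042 and 0.17 for Prss48, -0.078 and 0.073 for Prss55, -0.29 and 0.024 for Prss58, -0.018 and 0.43 for Serpina7, -0.092 and 0.17 for Serpinb6c, -0.19 and 0.56 for Serping1, -0.12 and 0.10 for Serpinh1 and -0.73 and 0.085 for Serpini1. Without turning sign, Prss21 lay between -0.35 and -0.11, Prss38 between -0.51 and -0.16, Prss46 between -0.29 and -0.052, Prss50 between 0.089 and 0.33, Prss54 between -0.36 and -0.15, Serpina3b between -0.70 and -0.11 and Serpinb6a between -0.18 and -0.075. Dim probes, such as those of Serpinb8 and Serpini1, lie so close to the background that small changes there could go unseen. The cause of these changes was not tested.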
